A study of Mus musculus with 58 samples.

Results

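Messenger RNAs of the cytosolic ribosomal proteins, the protein parts of the ribosome outside mitochondria, were followed in lung, liver and forestomach of mice given BaA, the polycyclic aromatic hydrocarbon benz(a)anthracene. The genes were taken by name: every mouse symbol made of Rpl or Rps and a number, with Rpsa, Rplp0, Rplp1 and Rplp2, leaving out the Rps6k kinases and the pseudogenes whose symbol holds -ps. Of the 95 RefSeq symbols that fitted this rule, 86 had a probe on the array, out of 20018 gene symbols matched in all. They comprised 46 genes of the large (60S) subunit, 30 of the small (40S) subunit and 10 paralogs or relatives that carry such a name, including Rps19bp1, which is not a ribosomal protein but a protein that binds Rps19. No probe was matched to Rpl32l, Rpl32p, Rpl37rt, Rpl6l, Rps12l1, Rps23, Rps27rt, Rps3a2 or Rps3a3.

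Ribosomal proteins are made in equal amounts and assembled in the nucleolus with ribosomal RNA, and their mRNAs are among the most abundant in a cell. Most of these mRNAs begin with a 5′ terminal oligopyrimidine (TOP) tract, a C followed by a run of pyrimidines, through which the mTOR pathway controls how fast they are translated. A few genes have tissue-restricted or stress-linked paralogs: Rps27l is a transcriptional target of p53, and free Rpl5 and Rpl11, together with 5S ribosomal RNA, bind Mdm2 and so restrain p53 turnover.

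Male Muta™Mouse animals, a transgenic strain that carries a lacZ mutation reporter in every tissue, received BaA in olive oil by gavage for 28 days at a daily dose per kg body weight of 0 mg (D0, olive oil alone), 20 mg (D1), 40 mg (D2) or 80 mg (D3). They were 10 weeks old, with 5 animals in each group, and tissues were taken 72 h after the last dose. Each sample of tissue RNA, labelled with Cy5, was hybridised with a common reference RNA pooled from mouse cell lines, labelled with Cy3, so that every value is a log2 ratio of tissue over reference. There were 20 lung, 19 liver and 19 forestomach arrays (4 animals in the liver D3 and forestomach D0 groups, 5 in all others), and the same animal gave all its tissues.

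The 58 arrays lay on 9 slides, each with 1 tissue and all 4 dose groups, and between 34.1% and 69.2% of probes on an array were well above background. Array ratios computed here correlated with the deposited ones at r = 0.995 to 0.998, and arrays of 1 group correlated with each other at 0.892 or more in lung, 0.954 or more in liver and 0.832 or more in forestomach. All 5 markers of each labelled tissue were measured there. Some arrays also carried markers of other tissues: the lung of mouse 5 (D0) had mean log2 ratios of 5.26 for 5 forestomach markers and 5.05 for 7 skeletal muscle markers, and the lung of mouse 16 (D3) had 2.89 and 1.66. Markers of the gastric glands, all 10 of them measured, were at 5.20 to 6.63 in all 5 forestomach D1 arrays and at 6.14 in mouse 2 of D0, against 0.41 to 0.66 in the other D0 arrays, and ran from 0.56 to 6.64 at D2 (median 1.29) and from 0.79 to 6.36 at D3 (median 2.82). Fat markers in forestomach had a median of 4.43 at D0 against 1.56, 2.16 and 1.91 at D1, D2 and D3, and reached 5.57 in lung at D2. Heart muscle markers ran from 0.49 to 4.38 over the lungs, and liver markers reached 3.20 in forestomach. The lung marker Scgb1a1 read 4.65 to 5.95 in forestomach. The part of these other tissues in the results was not tested. Barcodes in the scanner files place all 14 D0 arrays in column 1 of their slide, all 15 D1 arrays in column 2, all 15 D2 arrays in column 3 and all 14 D3 arrays in column 4, so that dose and place on the slide cannot be told apart.

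The first bases of several of these transcripts are shown because they carry, or lack, the tract that marks the family. Each run is 30 bases from RefSeq (GRCm38.p6), 10 before and 20 from the annotated start of transcription, with the pyrimidine tract in capitals where a C within 3 bases of the start was followed by at least 5 pyrimidines. The genes are some of those with the largest differences between tissues or with a change or trend described at a dose.
Rps27 (chr3:90213629-90213658, minus strand): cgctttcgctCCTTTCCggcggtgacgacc
Rps27l (chr9:66946076-66946105, plus strand): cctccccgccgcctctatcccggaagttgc
Rpl7l1 (chr17:46782637-46782666, minus strand): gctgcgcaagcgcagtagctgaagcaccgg
Rplp2 (chr7:141447641-141447670, plus strand): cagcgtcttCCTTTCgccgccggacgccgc
Rps24 (chr14:24490668-24490697, plus strand): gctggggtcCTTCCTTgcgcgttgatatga
Rps12 (chr10:23787190-23787219, minus strand): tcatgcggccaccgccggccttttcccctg
Rps21 (chr2:180257369-180257398, plus strand): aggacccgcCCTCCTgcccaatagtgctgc
Rps13 (chr7:116334171-116334200, minus strand): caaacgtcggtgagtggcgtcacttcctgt
Rpl7a (chr2:26910797-26910826, plus strand): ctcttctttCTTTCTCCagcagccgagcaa
Rps23rg1 (chr8:3567988-3568017, plus strand): gcagagagtCTTTCTCTCaccccagataaa

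Of the 65 genes with a start in the RefSeq table, 23 (35.4%) had the tract at 1 or more starts, against 7.44% of all symbols in that table. In Rps12 the run of pyrimidines lay further downstream than the window allowed, so the count depends on where the start is annotated. The letters CCGGAAG, searched on both strands from 250 bases before to 50 after the start, were present at 27 of 77 starts of these genes (35.1%) and at 8.86% of all starts. The letters TATAAA, searched in the same way, were present at 7 of the 77 (9.09%) and at 13.6% of all starts.

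Probes of these genes were among the brightest on the array. Of the 557 probes in the brightest 1% of the Cy5 channel, 83 to 94 belonged to the family on lung arrays and 83 to 102 on forestomach arrays, but 49 to 59 on liver arrays. After a filter that kept probes well above background on at least 4 arrays of a tissue, 84 of the 86 genes were tested in lung and 83 each in liver and forestomach. Rpl3l and Rpl10l, the paralogs of Rpl3 and Rpl10 known from muscle and testis, were tested in no tissue, and Rpl39l was tested in lung only. For genes with more than 1 probe the brightest tested probe is given, and many of these sequences have near-identical pseudogene copies from which hybridisation cannot be told apart.

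The widest differences lay between tissues. Over the 83 genes tested in all 3 tissues, the median log2 ratio of an array ran from -0.11 to 0.08 in lung and from -0.11 to 0.12 in forestomach, but from -1.45 to -0.99 in liver. On this scale no liver array of any dose group overlapped with an array of another tissue, whereas under plain median centring the array medians did overlap, at -3.52 to -2.34 in liver, -2.97 to -1.05 in lung and -2.88 to -0.01 in forestomach. In an array of whole tissue, a lower level in every cell and a smaller share of cells with a high level cannot be told apart.

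**Figure D1:**
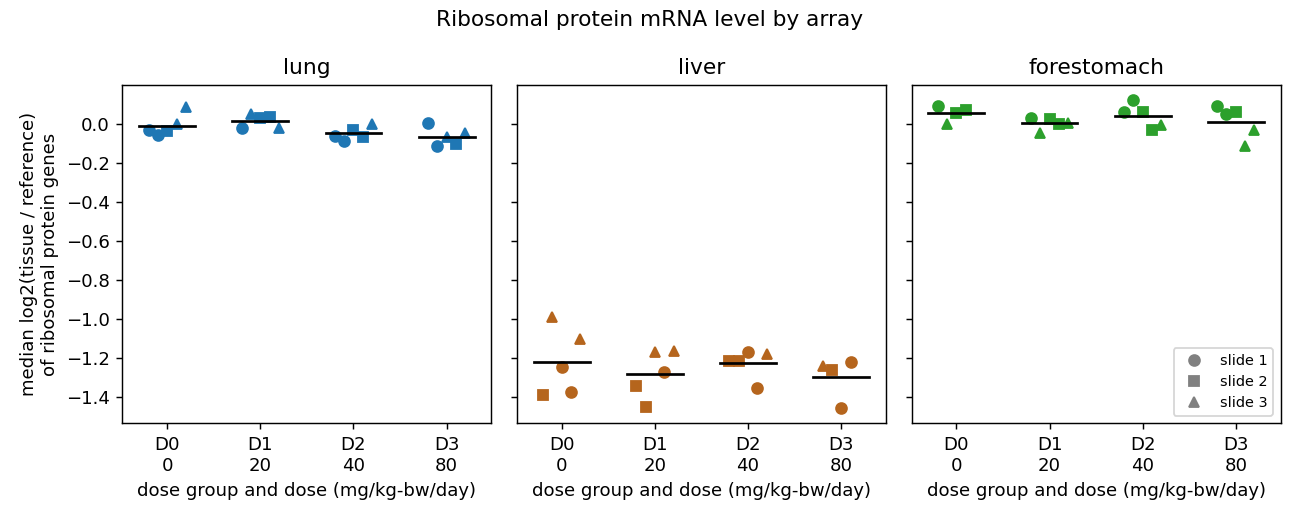
Median log2 ratio of tissue over reference across the 83 ribosomal protein genes tested in all tissues, 1 point per array, by dose group (columns) and tissue (panels). Symbols give the slide within the tissue and black lines the group mean. All liver arrays sit between -1.45 and -0.99, and all lung and forestomach arrays between -0.11 and 0.12.

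In vehicle (D0) mice the ribosomal protein mRNAs of both subunits were lower in liver than in lung. Compared by limma in 1 model over all 12 groups, 71 of 83 genes were called higher in lung (adjusted p of at most 0.05 and at least 1.5-fold) and 3 lower, with a median difference of 1.20 on the log2 scale (2.29-fold), whereas 27.8% of all 21868 probes were called higher in lung, 22.8% were called higher in liver, 50.6% together, and the median over all probes was 0.00. The genes called higher in lung comprised 42 of 46 large subunit genes and 29 of 30 small subunit genes, with medians of 1.20 and 1.32. Counted by probe, 138 of 165 probes of the family were called. Among the 50 genes with several tested probes, 8 had probes of opposite sign and 14 were called by some probes only. In the ratios that the authors deposited, the median difference was 0.72, with 53 genes called higher in lung and 4 lower, where 11269 of the 21868 probes were called in either direction. Under plain median centring of each array in place of an intensity-dependent curve, the median was 0.63 and only 2 genes were called higher in lung and 1 lower, with the median of all probes at 0.20. That setting called 7618 of the 21868 probes in either direction.

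Forestomach stood above liver in the same way. Of the 83 genes, 76 were called higher in forestomach (background 24.2% of 22074 probes) and 2 were called higher in liver (background 20.7%, or 44.9% in either direction), with a median difference of 1.20 on the log2 scale. All 30 small subunit genes and 45 of 46 large subunit genes were among the 76. Counted by probe, 152 of 165 were called. Among the 50 genes with several tested probes, 0 had probes of opposite sign and 9 were called by some probes only. The deposited ratios gave a median of 0.84, with 59 genes called higher and 3 lower, and median centring gave 1.83 with 76 and 0, the median of all probes being at 0.68. Of the 22074 probes, 9956 were called in either direction with the deposited ratios and 11589 under median centring. Both comparisons rest on the same 5 liver arrays. Each slide held 1 tissue, and with slide as a random block 71 genes were called higher and 4 lower in lung, and 76 and 2 in forestomach. Of all probes, 11055 of 21868 and 9798 of 22074 were then called in either direction.

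A rank within each array, which needs no normalisation and was added after the data were seen, had the same direction. The median gene of the family had 0.925% to 1.18% of probes brighter than its own on liver arrays in the Cy5 channel, against 0.494% to 0.618% on lung and 0.506% to 0.645% on forestomach arrays. In the Cy3 channel, which held the same reference RNA on all arrays, the medians were 0.451% in liver, 0.474% in lung and 0.472% in forestomach. Among vehicle arrays, 76 of 83 genes had more probes above them in liver than in lung, and 76 had more in liver than in forestomach.

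Rps12, a small subunit protein, differed most between lung and liver. Its log2 ratios were 0.17, 0.38, 0.34, 0.37 and 0.49 in the lungs of vehicle mice 1 to 5 and -1.97, -1.36, -1.66, -1.71 and -1.70 in their livers. Forestomach of mice 1 to 4 read 0.17, 0.12, 0.04 and 0.21, so that each liver value lay more than 1 log2 unit below every other. The lung minus liver difference was 2.03 ± 0.08 (SE, limma adjusted p = 3.67e-28). Next in order came Rps27, a zinc-finger protein of the small subunit (1.88 ± 0.09), Rps14 (1.79 ± 0.09) and Rplp2, an acidic protein of the ribosomal stalk (1.76 ± 0.08). Between forestomach and liver the order was led by Rps24 (2.02 ± 0.12), followed by Rps12 (1.81 ± 0.09) and Rplp2 (1.73 ± 0.08).

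The stalk, through which elongation factors reach the ribosome, followed the family. Rplp0 was higher than in liver by 1.33 in lung and 1.63 in forestomach on the log2 scale, Rplp1 by 1.27 and 1.01, and Rplp2 by 1.76 and 1.73, all called, with 4 vehicle livers for Rplp1 because its spot on the other array was an outlier. The 5S particle proteins were also called higher outside liver, Rpl5 by 0.82 in lung and 1.06 in forestomach and Rpl11 by 0.90 and 1.11. For Rpl5 the forestomach of mouse 2 read -1.10, within the range of liver, and those of mice 1, 3 and 4 read 0.15, 0.05 and 0.09. Rpsa, the laminin receptor precursor of the small subunit, differed by 1.31 and 1.34. The corresponding differences of Rps6, the substrate of the S6 kinases, were 0.96 and 1.07.

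**Figure D2:**
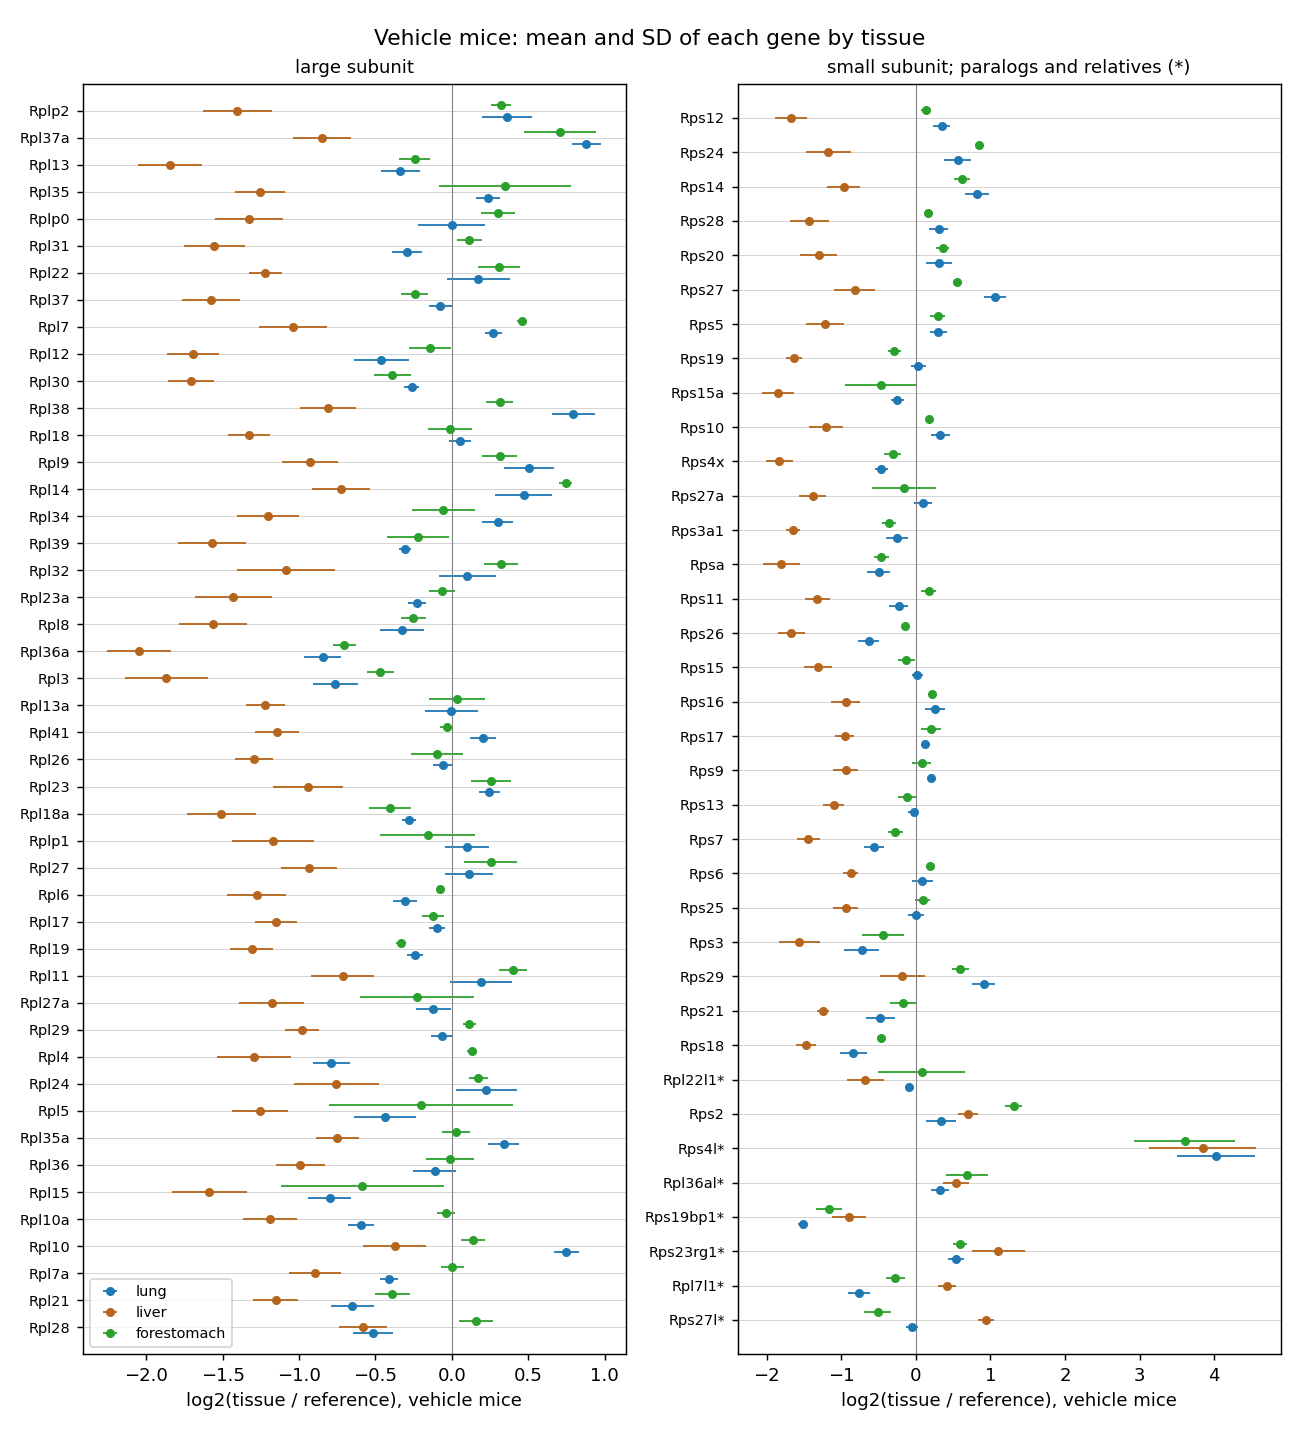
Mean log2 ratio of tissue over reference in vehicle mice for each of 82 genes, with bars for the SD over 5 lungs, 5 livers and 4 forestomachs. Genes are sorted by how far liver lay below the other tissues, and asterisks mark paralogs and relatives. Liver lay furthest left for nearly all genes of both subunits, and Rps27l and Rpl7l1 at the foot of the right panel show the opposite order.

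Some paralogs went the other way. Rps27l, the paralog of Rps27, had log2 ratios of 0.90, 1.05, 0.94, 0.78 and 1.02 in the livers of vehicle mice 1 to 5, against 0.00, -0.14, 0.02, -0.14 and -0.01 in lung and -0.62, -0.27, -0.49 and -0.68 in forestomach. The 3 tissues did not overlap, with liver highest. The lung minus liver difference was -0.99 ± 0.10 (SE, limma adjusted p = 2e-13) and the forestomach minus liver difference -1.45 ± 0.10 (adjusted p = 2.98e-18, and -0.77 with adjusted p = 0.121 under median centring, where the median of all probes was 0.68). Its parent Rps27 read -1.12 to -0.50 in liver and 0.94 to 1.28 in lung, the reverse order.

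Rpl7l1, a relative of Rpl7, had log2 ratios of 0.41, 0.26, 0.52, 0.34 and 0.56 in vehicle livers, -0.61, -0.96, -0.68, -0.88 and -0.69 in lungs and -0.42, -0.30, -0.11 and -0.29 in forestomachs. Liver was again above all vehicle arrays of the other tissues, which also did not overlap with each other. The lung minus liver difference was -1.18 ± 0.08 (limma adjusted p = 1.8e-18) and the forestomach minus liver difference -0.70 ± 0.09 (adjusted p = 6.42e-10), but under median centring the first was -0.64 (adjusted p = 0.0609) and the second turned to 0.23, with the median of all probes at 0.20 and 0.68. Rpl7 itself was higher than in liver by 1.31 in lung and 1.497 in forestomach.

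**Figure D3:**
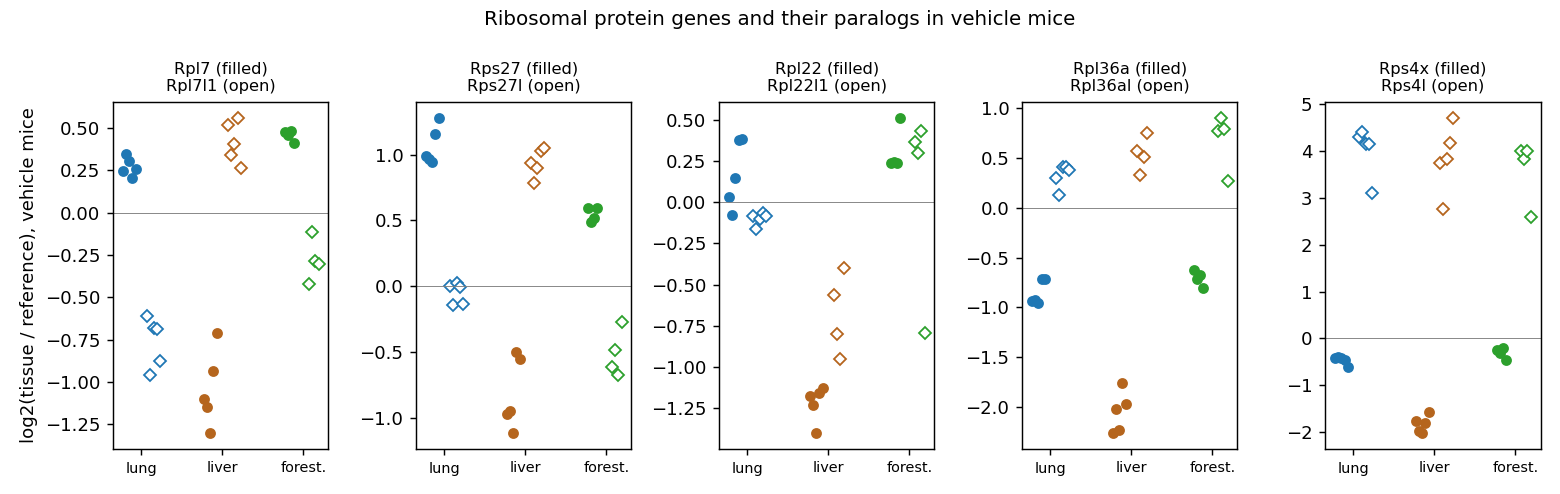
Log2 ratio of tissue over reference in vehicle mice for 5 ribosomal protein genes (filled) and a paralog of each (open), 1 point per animal, with a separate scale in each panel. The parents were lowest in liver in all 5 panels, whereas Rps27l and Rpl7l1 were highest there.

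The other paralogs in the plot of parents and paralogs lay closer to their liver level than their parents did. Rpl36al, a paralog of Rpl36a, differed from liver by -0.21 in lung and 0.14 in forestomach, neither called, where Rpl36a differed by 1.20 and 1.34. Rpl22l1 differed by 0.58 and 0.76, of which the forestomach value was called, and Rpl22 by 1.39 and 1.53. Rps4l, which RefSeq lists as a transcribed pseudogene, differed by 0.18 and -0.24 and Rps4x by 1.37 and 1.52. Between lung and forestomach the differences were -0.36 for Rpl36al, -0.17 for Rpl22l1 and 0.42 for Rps4l, against -0.14 for Rpl36a, -0.14 for Rpl22 and -0.15 for Rps4x. No test compared paralog with parent. Rps23rg1, by its name a retrogene of Rps23 and counted among the relatives, differed from liver by -0.57 in lung and -0.51 in forestomach, neither called. Whether it encodes a ribosomal protein was not examined. Rps19bp1 was called lower in lung than in liver (-0.62 ± 0.09, adjusted p = 4.52e-08) but not in forestomach (-0.27).

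Between lung and forestomach, few genes of the family were past both thresholds. By limma adjusted p alone, with differences under 1.5-fold counted too, 33 of the 83 genes passed. The share of all probes at that threshold was not computed. Of the 83 genes, 1 was called higher in lung (background 16.8% of 28434 probes) and 3 higher in forestomach (background 15%, or 31.8% in either direction), with a median difference of -0.08 on the log2 scale. These counts depended on the probe, since 19 of 167 probes of the family were called. Among the 51 genes with several tested probes, 12 had probes of opposite sign and 14 were called by some probes only. Rps2, a small subunit protein, read 1.22, 1.47, 1.25 and 1.31 in forestomach and 0.20, 0.29, 0.18, 0.34 and 0.68 in lung, with no overlap. Its lung minus forestomach difference was -0.97 ± 0.08 (limma adjusted p = 1.72e-15). Its liver values, 0.57 to 0.88, lay below all forestomach values and above all lung values but the highest, 0.68. It was the only small subunit gene whose lung level was below its liver level.

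Rpl4, a large subunit protein with a long internal loop, read 0.14, 0.11, 0.17 and 0.10 in forestomach, -0.77, -0.74, -0.97, -0.81 and -0.64 in lung and -1.54 to -0.96 in liver. Forestomach stood above both other tissues, while the lowest lung value of Rpl4, -0.97, fell within the liver range. The lung minus forestomach difference was -0.92 ± 0.10 (adjusted p = 2.36e-11) for Rpl4 and -0.68 ± 0.09 (adjusted p = 1.76e-09) for Rpl28. Rpl10 was the gene called higher in lung, where it read 0.66 to 0.85 against 0.05 to 0.23 in forestomach (0.61 ± 0.08, adjusted p = 1.89e-08), but the deposited ratios gave 0.50 and median centring -0.71, with the median of all probes at -0.38. Next to these at the forestomach end was Rpl10a at -0.56, and at the lung end Rps27 at 0.52, Rpl38 at 0.48 and Rps27l at 0.46, none past 1.5-fold. Under median centring, where the median of all probes was -0.38, the family's median was -1.18, with 0 genes called higher in lung and 32 in forestomach. That setting called 8758 of all 28434 probes in either direction.

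Genes of neighbouring pathways, taken from lists of known function, did not all share the order of the tissues. Their counts stand against 27.8% of all probes called higher and 22.8% lower in lung than in liver, and 24.2% and 20.7% in forestomach than in liver. Of 16 translation factors and partners whose mRNAs carry a TOP tract, 9 were called higher in lung than in liver and 0 lower, and 13 were called higher in forestomach and 0 lower, with medians of 0.65 and 0.98 on the log2 scale. Tpt1, the translationally controlled tumour protein, differed by 1.502 and 0.76, and Rack1, a scaffold on the small subunit, by 1.19 and 1.42. Fau, whose product is cleaved to release a small subunit protein, differed by 1.21 and 0.66. Mitochondrial ribosomal proteins had the opposite direction, with 1 of 77 called higher and 50 lower in lung than in liver (median -0.72) and 1 higher and 27 lower in forestomach (median -0.45). Of 30 ribosome biogenesis genes, 1 was called higher and 5 lower in lung, and 10 higher and 1 lower in forestomach. Among 13 regulators of ribosomal protein synthesis, 1 was called higher and 9 lower in lung than in liver, including Eif4ebp1, the mTOR-regulated repressor of cap-dependent translation (-1.25), and Mtor itself (-1.05).

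Differences between BaA-treated and vehicle mice were small for this family in all 3 tissues. No gene of the family was called at any dose by limma, in lung (background 0%, 0.556% and 1.88% of 30383 probes at D1, D2 and D3), in liver (background 0.241%, 0.584% and 0.448% of 22789) or in forestomach (background 0%, 0.0124% and 0.0248% of 32318). At D3, an unadjusted p under 0.05 was reached by 11 of 84 genes in lung, 12 of 83 in liver and 2 of 83 in forestomach. These were 13.1%, 14.5% and 2.41% of the genes, against 23.9%, 15% and 5.12% of all probes.

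The median change at D1, D2 and D3 was 0.02, -0.07 and -0.06 in lung, -0.06, -0.02 and -0.10 in liver and -0.04, -0.01 and -0.01 in forestomach, on the log2 scale, beside medians within 0.02 of 0 for all probes. At D3, 66 of 84 genes were below vehicle in lung, 69 of 83 in liver and 47 of 83 in forestomach. In lung the direction depended on the normalisation, since the deposited ratios gave medians of 0.04 at D2 and 0.03 at D3, and median centring gave 0.54 and 0.19 with the median of all probes at 0.38 and 0.15. On the single lung slides the D3 median was 0.02 on slide 1 and -0.13 on slide 3, and on the liver slides 0.11 on slide 2 and -0.27 on slide 3.

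**Figure D4:**
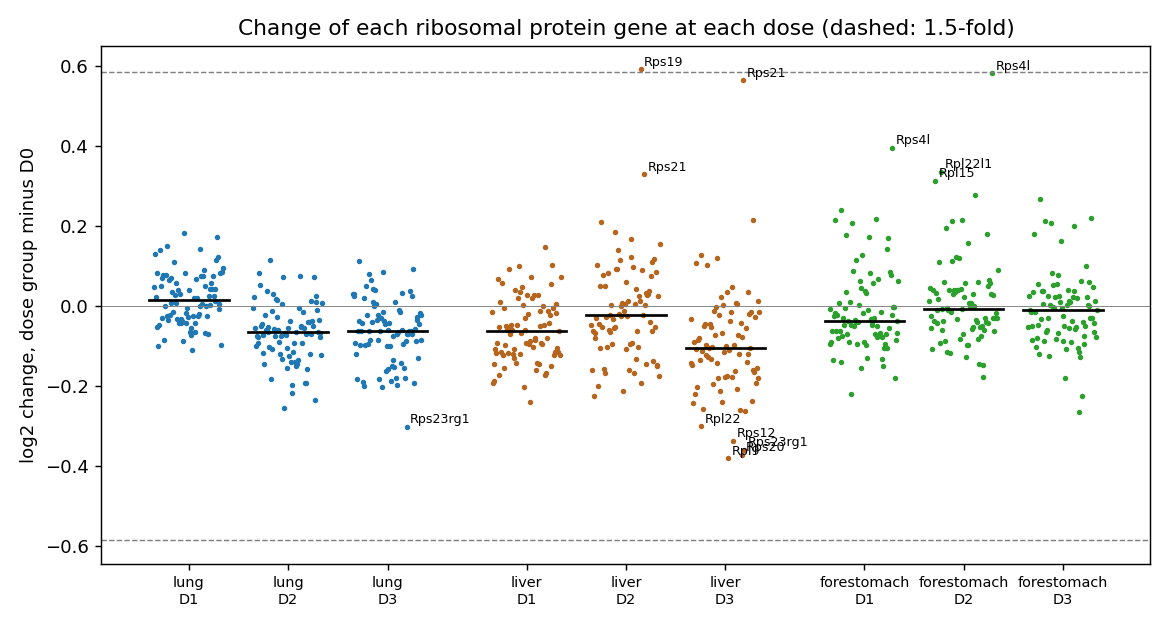
Log2 change from vehicle of each ribosomal protein gene (points) at each dose in each tissue, with the median as a black line and 1.5-fold as dashed lines. Medians lie between -0.10 and 0.02, and Rps19 in liver at D2 is the 1 point past a dashed line, at 0.59 with an adjusted p of 0.395.

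In lung, 2 genes passed the adjusted p at D3 with changes under 1.5-fold, where 9.13% of all probes passed it. No gene of the family passed the adjusted p alone in any other dose comparison, against 0% and 2.2% of all probes in lung at D1 and D2, 0.377%, 1.13% and 1.15% in liver, and 0%, 0.0124% and 0.0248% in forestomach. With slide as a block, 3 genes passed it in lung at D3 and 3 in liver at D3, among the latter Rps21 and Rpl9, and 0 genes were past 1.5-fold as well. At both thresholds, 609 of 30383 lung probes and 164 of 22789 liver probes were then called. In lung at D3, 1 gene passed the adjusted p with the deposited ratios, the mean of probes or no filter. With median centring, the Cy5 channel alone or the scanner software's processed signals, 0 passed. Normexp background correction gave 2 and a filter on all arrays gave 3. At both thresholds, the deposited ratios, median centring, Cy5 alone and processed signals called 532, 0, 427 and 1040 of all lung probes. Of the lung genes described next, Rps23rg1 is counted among the relatives and in neither subunit. Rps23rg1 read 0.46, 0.73, 0.46, 0.55 and 0.51 in vehicle lungs and 0.24, 0.30, -0.02, 0.39 and 0.29 at D3. All D3 values lay below all vehicle values, and the change was -0.30 ± 0.08 (SE, limma adjusted p = 0.022, n = 5 and 5). Rps13, a small subunit protein, read -0.10, -0.09, -0.04, -0.00 and 0.08 in vehicle lungs and -0.32, -0.19, -0.26, -0.25 and -0.11 at D3, again without overlap, with a change of -0.20 ± 0.06 (adjusted p = 0.0402).

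A linear dose trend passed the adjusted p for 3 of 84 genes in lung, all falling, against 11.6% of all probes. These were 1 of 30 small subunit genes, 1 of 46 large subunit genes and the relative Rps23rg1. Per 80 mg/kg-bw/day, Rps23rg1 fell by 0.30 (adjusted p = 0.00932), Rps13 fell by 0.21 (adjusted p = 0.0162) and Rpl7a, a large subunit protein, fell by 0.15 (adjusted p = 0.0407). Rpl7a read -0.47 to -0.31 in vehicle lungs and -0.62 to -0.53 at D3, so the groups did not overlap. Without the lungs of mice 5 and 16, which carried forestomach and muscle markers, only Rps23rg1 passed (adjusted p = 0.0255), with Rps13 at 0.083 and Rpl7a at 0.0842. With the deposited ratios the trends of Rps13 and Rpl7a had adjusted p of 0.158 and 0.335. At the ends of the lung D3 order stood also Rpl38 (-0.20) and Rpl22 (-0.20), and Rpl15 (0.11), Rps29 (0.09), Rpl39 (0.09) and Rpl27a (0.08), none past the adjusted p. The mean log2 ratio of 9 B cell markers, all measured, was 0.91 to 1.26 in vehicle lungs. At D1, D2 and D3 it was 1.09 to 1.62, 1.49 to 1.97 and 1.29 to 1.57, with the highest median at D2. Its part in these changes was not tested.

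In liver, Rps21, a small subunit protein measured by a single probe, had the highest change at D3. Its log2 ratios were -1.17, -1.34, -1.32, -1.21 and -1.19 in vehicle livers, -1.05, -0.98, -1.29, -0.91 and -1.26 at D1, -0.51, -0.95, -0.86, -0.94 and -1.33 at D2, and -1.03, -0.85, -0.47 and -0.39 at D3. All 4 D3 livers lay above all vehicle livers. The D3 change was 0.56 ± 0.14 (limma adjusted p = 0.0626), and the dose trend, 0.57 ± 0.13 per 80 mg/kg-bw/day, passed the adjusted p at 0.048, the 1 such gene of 83 in liver against 0.676% of all probes.

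The reference channel of the Rps21 spot was also lower at D3. Although every array held the same reference RNA, the log2 Cy3 signal was 8.81 to 12.1 in vehicle livers, 9.03 to 12.4 at D1, 9.08 to 12.4 at D2, but 7.07 to 9.54 at D3. Its lowest value in forestomach was 10.4 in vehicle, 10.5 at D1 and D2 and 7.74 at D3. Of 9802 spots of the family, 15 had a Cy3 signal at least 4-fold below the slide's median for that spot, and 8 of the 15 were Rps21 at D3. In 2 of the 4 D3 livers, mice 18 and 19, the Cy5 signal was not well above background. Without those 2 spots the trend was 0.38 (adjusted p = 0.24). Without the weak reference spots, which leaves mouse 17 as the only D3 liver, it was 0.50. The Cy5 channel alone gave a D3 change of -1.19. In forestomach the D3 change of the Rps21 ratio was 0.06 ± 0.15, and in lung, where Cy3 was 11.6 to 12.9 in vehicle and 11.8 to 13.1 at D3, it was -0.09 ± 0.12.

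**Figure D5:**
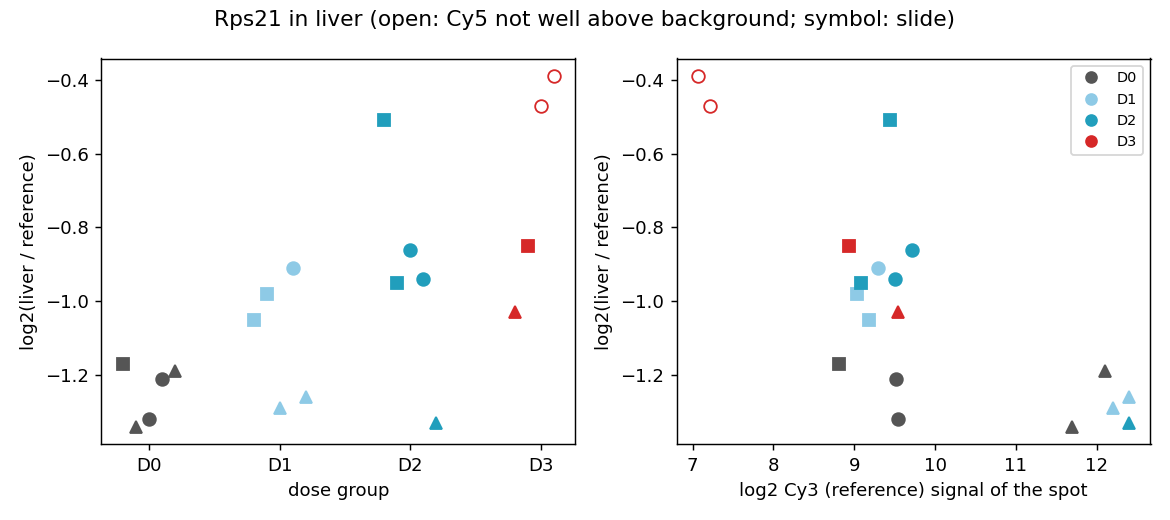
Log2 ratio of Rps21 in each liver by dose group (left) and against the log2 Cy3 signal of the same spot (right), with the slide as symbol and open points where Cy5 was not well above background. The highest D3 ratios, -0.47 and -0.39, are the open points and have the lowest Cy3 signals, 7.22 and 7.07.

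Rps19, a small subunit protein, showed the same kind of spot. Its ratio at D2 was -0.03 and 0.01 in mice 11 and 12, whose Cy3 signals were 5.64 and 5.78 against a slide median of 15.3, and -1.63, -1.85 and -1.73 in the other D2 livers. Its D2 change, 0.59 with an adjusted p of 0.395, includes those spots. At D3 the Rps19 ratios, -2.04 to -1.78, lay below all 5 vehicle ratios, -1.74, -1.55, -1.67, -1.73 and -1.5.

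Among the liver genes below vehicle at D3, Rpl22 was the one nearest to the threshold. It read -1.40, -1.13, -1.18, -1.23 and -1.16 in vehicle and -1.54, -1.53, -1.55 and -1.47 at D3, without overlap, and changed by -0.30 ± 0.07 (limma adjusted p = 0.0537). Larger but more variable were Rpl9 at -0.38 (adjusted p = 0.141), Rps20 at -0.37 (0.164), Rps23rg1 at -0.36 (0.524) and Rps12 at -0.34 (0.125). Above vehicle after Rps21 came Rps4l at 0.21, Rpl21 at 0.13 and Rpl36al at 0.12.

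In forestomach no gene of 83 had a dose trend past the adjusted p in limma, which 0.0248% of all probes passed. Rpl8, a large subunit protein at the peptidyl transferase centre, read -0.32, -0.14, -0.23 and -0.31 in vehicle and -0.38, -0.44, -0.36, -0.55 and -0.42 at D3. Its groups did not overlap, but its change of -0.18 ± 0.06 had an adjusted p of 0.82. Rps19bp1 stood at -0.26, Rps23rg1 at -0.23 and Rps20 at -0.13, and at the upper end were Rpl22l1 at 0.27, Rps4l at 0.22, Rpl27a at 0.21 and Rpl34 at 0.21. For Rpl22l1, Rps4l and Rpl27a the vehicle mean held mouse 2, whose forestomach carried gastric gland markers, and without it the changes of Rpl22l1 and Rps4l were -0.02 and -0.12. That array was also the only vehicle forestomach on slide 3. It had 38.4% of probes well above background, against 52.4% to 58.2% in the other vehicle forestomachs, so gland content and slide cannot be told apart there. Gland markers were also at 2.82 to 6.36 in the D3 forestomachs of mice 17, 19 and 20, whose part in these changes was not tested.

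The members tied to p53 were near vehicle at D3. Rps27l changed by 0.02 ± 0.07 in lung, -0.02 ± 0.07 in liver and 0.02 ± 0.15 in forestomach, none past the adjusted p. For Rpl5 the changes were -0.16, 0.00 and 0.16, and for Rpl11 0.03, -0.15 and -0.01. The stalk genes lay between -0.15 and -0.07 in lung, -0.11 and -0.01 in liver and 0.00 and 0.04 in forestomach.

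The D3 effect was also compared between tissues in the 1 model of all groups. By limma, no gene of the family was called for lung against liver (background 2.07%), forestomach against liver (background 0.0453%) or lung against forestomach (background 0.257%). The smallest adjusted p was that of Rps21 in lung minus liver, -0.65 ± 0.20 (adjusted p = 0.063).

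Outside the family, few genes of the same pathways were called at any dose. In lung at D3, 1.88% of all probes were called. There Rrp12, from the 30 ribosome biogenesis genes tested, fell by 0.68 (limma adjusted p = 0.00755). Mrps6, from the 77 mitochondrial ribosomal proteins tested, fell by 0.59 (adjusted p = 0.00658). In liver Zfp692, from the list of regulators, fell by 0.86 at D1 (adjusted p = 0.00778) and fell by 0.71 at D2 (adjusted p = 0.0149). The background there was 0.241% and 0.584% of all probes. Dose trends in lung passed for 4 of 30 ribosome biogenesis genes and 2 of 16 translation factors, all falling. Of 77 mitochondrial ribosomal proteins 4 rose and 4 fell, and of 14 regulators 2 rose and 1 fell, against 11.6% of all probes. In liver and forestomach 0 genes of these lists passed, against 0.676% and 0.0248%.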

How the data were processed

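RNA of lung, liver and forestomach was hybridised to 58 2-colour Agilent arrays. Per the file headers, Feature Extraction 10.7.3.1 gave median spot and background intensity values on a linear scale; these intensity columns were deposited unnormalised. The authors deposited log2 ratios made by LOWESS from median signals without background subtraction, nothing pooled.

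Here, control spots and outlier spots (0.495% of gene spots) were left out, the median signals were normalised by within-array loess in limma 3.58.1 (R 4.3.3, data.table, version 1.17.8), and spots of 1 probe were averaged. No spot was saturated (0 spots). Of 55681 probes, 26413 matched a RefSeq symbol by accession. A probe was tested in a tissue when its Cy5 signal was well above background on at least 4 arrays. Each dose was compared with vehicle by limma over all probes of a tissue, with Benjamini-Hochberg adjustment, in place of the study's MAANOVA, which was not used here; a gene was called at an adjusted p of at most 0.05 and at least 1.5-fold. Tissue and interaction contrasts came from 1 model of 12 groups. A gene with several probes (33 of the family had 1 probe) was represented by the brightest. Normexp, with an offset of 50, was run on median signals because no mean signal was used. The number of arrays limits the precision.

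The members and lists were chosen with earlier results of these data known. Genes were named by rule: all called members, the 4 highest and 4 lowest changes at D3 per tissue, the 4 largest differences each way between vehicle tissues, the 3 smallest trend p-values per tissue, the paralogs and their parents, stalk and 5S particle genes, Rpsa, Rps6 and Rps19bp1, and genes of other lists called at a dose; Rps19 and other genes with a far or weak spot were named after their values were seen, and 1 gene that the rule names is not reported here. Deviations of the same animal's arrays from their group means correlated at a median r of 0.125 (lung and liver), 0.062 (forestomach and liver) and 0.109 (lung and forestomach), and the numbers pair samples because 1 animal gave all tissues. Alternatives were the deposited ratios, median centring, loess without the family, the Cy5 channel alone, normexp, processed signals, other filters, slide and mouse blocks and leaving out each animal. The fits were tested on simulated data.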

Additional observations from a re-analysis of the deposited data

Results flagged for a closer look

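Within groups of 4 or 5 arrays, 7 of 115 sets of values held an array far from the others, where chance gives about 1 in 20. The share was thus near that rate. Besides the family medians, the sets came from genes named for large changes at D3, small trend p-values or large differences between vehicle tissues. An outlying array also enters the changes by which such genes were named. The median of the family was lowest in the liver of mouse 14 at D2 (-1.35, others -1.21 to -1.17) and of mouse 18 at D3 (-1.45, others -1.26 to -1.22). The vehicle forestomach of mouse 2, the 1 vehicle forestomach with gastric gland markers and also the only one on slide 3, was lowest for Rpl22l1 (-0.79, others 0.30 to 0.43), Rpl27a (-0.78, others -0.11 to 0.02) and Rps4l (2.59, others 3.83 to 4.00). The lungs with forestomach and muscle markers were highest for Rpl28 (mouse 5, vehicle, -0.29, others -0.61 to -0.53) and Rpl38 (mouse 16, D3, 0.88, others 0.44 to 0.57). The part of the other tissue or of the slide in these values was not tested.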

How the results depend on the processing

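With the deposited ratios the median change in lung was 0.0393 at D2 and 0.0325 at D3, no gene had a dose trend in liver (0), the median vehicle difference was 0.72 for lung minus liver and 0.84 for forestomach minus liver, 0 genes were called higher in lung than in forestomach, Rpl10 turned to -0.25 for forestomach minus liver and Rplp2 to -0.0533 for lung minus forestomach. Between lung and forestomach, 8998 of 28434 probes were called in either direction with these ratios. Median centring gave median changes of 0.35, 0.54 and 0.19 in lung at D1, D2 and D3, 0.14 and -0.26 in liver at D1 and D2, and -0.16, 0.30 and -0.17 in forestomach, with 0 dose trends in lung and 0 in liver, while the median of all probes shifted by 0.18, 0.38 and 0.15 in lung, 0.06 and -0.17 in liver, and -0.03, 0.13 and -0.07 in forestomach. Against that 0.15, it turned the lung D3 changes of Rpl38, Rpl22 and Rps13 to 0.0547, 0.0649 and 0.0651 and the lung trends of Rps13 and Rpl7a to 0.013 and 0.0965. Between vehicle tissues it called 7618 of 21868 probes for lung minus liver, 11589 of 22074 for forestomach minus liver and 8758 of 28434 for lung minus forestomach. It gave the family medians of 0.63 (2 genes called higher, 1 lower), 1.83 (0 lower) and -1.18 (0 higher, 32 lower) in the same order, with all probes at 0.20, 0.68 and -0.38. Against those shifts, it turned the forestomach minus liver differences of Rpl7l1, Rps23rg1, Rps19bp1 and Rps4l to 0.23, 0.34, 0.50 and 0.50, and the lung minus forestomach differences of Rps27l, Rpl38, Rps27, Rpl10, Rplp1 and Rplp2 to -0.53, -0.76, -0.72, -0.71, -0.99 and -1.22. Loess without the family gave medians of 1.36 and 1.40 against liver and 0 liver trends. The Cy5 channel alone gave 0.0221 and 0.0111 in lung at D2 and D3 and -1.19 for Rps21 in liver, and processed signals gave -0.0032 and -0.0084 in lung, 0.0543 in forestomach at D2, -0.17 for Rps21 in liver and -0.23 for Rps4l in forestomach. Without a minimum fold 2 genes were called in lung at D3, with the mean of probes the Rpl27a change, lung D3 minus D0, was -0.0433, and a slide block gave 6 lung trends. Within slides the medians were 0.0828 and -0.0795 in lung at D1 (slides 2 and 3), 0.0163 and -0.127 at D3 (slides 1 and 3), 0.19 and -0.15 in liver at D2 and 0.11 and -0.27 at D3 (slides 2 and 3). With slide as a random block 1 gene's D3 effect differed between lung and liver. Of the settings added after the data were seen, leaving out the lungs of mice 5 and 16 gave 1 lung trend. Leaving out weak reference spots left Rps21 with mouse 17 as its only D3 liver, and its D3 change was not fitted. The cause of these shifts was not tested.

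With mouse as replicate block, pairing the tissues of an animal, the family's median was 1.20 for both lung and forestomach minus liver and no count of calls moved. Leaving out 1 animal at a time, lung trends ranged from 2 to 6 (6 without mouse 16, 5 without mouse 20), liver trends and liver D3 calls from 0 to 1, the lung against liver D3 effect from 0 to 1, the forestomach minus liver median from 1.14 to 1.30, and genes called higher in lung than forestomach from 0 to 2. The D3 change ranged from -0.0559 to 0.43 for Rps4l in liver, -0.12 to 0.35 for Rps4l and -0.0235 to 0.38 for Rpl22l1 in forestomach, and the vehicle difference from -0.64 to 0.31 (forestomach minus liver) and -0.0097 to 0.78 (lung minus forestomach) for Rps4l, -0.0055 to 0.11 for Rplp2 and -0.0864 to 0.0157 for Rpsa (both lung minus forestomach).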

Other observations

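Within dose groups, some relatives of the family varied widely between arrays. Rps4l had a residual SD of 0.31 in lung, 0.69 in liver and 0.44 in forestomach on the log2 scale. In the Cy3 channel of vehicle arrays, a median of 46%, 49.2% and 52.8% of probes were brighter than its own. Rpl39l, a paralog of Rpl39 tested in lung only, had the highest residual SD there, 0.36, at a mean log2 ratio of -4.59 in vehicle lungs. It was well above background on 10 of the 20 lung arrays. The part of weak signal or slide in this spread was not tested.

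Genes with the pyrimidine tract at the annotated start and genes without it had near medians of the tissue difference. Lung minus liver was 1.22 over 23 genes with the tract and 1.12 over 39 without it, and forestomach minus liver was 1.15 and 1.19, with no test of the difference.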
